A study of Mus musculus with 14 samples.

Results

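Loss of interleukin 6 (IL6) was examined on top of loss of Mdr2, in tumour-free liver of female mice aged 14 months. Mdr2, now named Abcb4, encodes the flippase that puts phosphatidylcholine into bile at the hepatocyte's canalicular membrane; mice that lack it develop bile duct injury, long-lasting inflammation and, late in life, liver tumours. The comparison took all 6 arrays labelled Mdr2-knockout/IL-6-knockout (here Mdr2-KO/IL6-KO, its single arrays called double-knockout arrays) against all 5 labelled Mdr2-knockout (here Mdr2-KO), 11 of the 14 arrays of the study. The other 3 arrays came from wild-type C57BL/6 females of the same age and are given beside the knockout values as levels for some genes only. Both knockout groups carry the Mdr2 knockout, so the contrast is between Mdr2-deficient livers with and without the Il6 gene. The labels give a strain for the wild-type mice alone, and how the knockout lines were bred, and from how many litters, is not given in the sources used here. Total RNA from snap-frozen liver was hybridised to Affymetrix arrays, and 19938 genes were tested, each through 1 probe set. The array titles differ within a group in a way that fits separate animals, but no label says so, and the p-values then cover only array-to-array spread, which may be technical.

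IL6 is a cytokine made by macrophages and other cells that acts on hepatocytes through its receptor Il6ra and the shared signalling chain gp130 (Il6st). Kinases of the JAK family then activate the transcription factor STAT3, which drives the acute phase response, the switch of hepatocyte secretion towards serum amyloid A, fibrinogen, orosomucoid and other plasma proteins. STAT3 also induces Socs3, which shuts the signal down. IL6 is known in liver for this secretory programme and for its part in regeneration, bile duct biology and tumour growth.

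Values are log2 expression levels, so a difference of 1 is a doubling. A gene passed when its adjusted p in the limma fit was under 0.05, and a call is said to have held when it also passed, in the same direction, in each of 22 alternative fits that tested the gene. Genes below a log2 level of 5.49, under which 95% of the 1015 olfactory receptor genes lay, were taken as background. In a principal component analysis of the 11 knockout arrays, the first component, with 30.9% of the variance, separated the groups without overlap. The second, with 15.9%, set Mdr2-KO array 3 and double-knockout array 2 apart from the rest. These 2 arrays were high in neutrophil granule genes: Ngp, for example, read 10.21 in the first and 9.24 in the second, against at most 5.67 in the other 9. The mean over the 19 neutrophil markers measured ran from 5.64 to 7.99 in Mdr2-KO and from 5.66 to 7.29 in Mdr2-KO/IL6-KO, and none of the markers passed in limma, none had an unadjusted p under 0.05 and none passed in any alternative fit. Because Mdr2-KO array 3 was also the highest in most acute phase genes, the differences of the named acute phase genes, Stat3 and Socs3 are also given without it. In whole liver, fewer cells of a type and less RNA per cell cannot be told apart.

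The knockouts themselves were read first. Abcb4 read 8.93, 9.09, 9.06, 9.23 and 8.73 in the Mdr2-KO arrays and 8.77, 9.10 and 9.24 as the lowest, median and highest of the Mdr2-KO/IL6-KO arrays, against a mean of 10.36 ± 0.04 (SD, n = 3) in wild type. Both knockout groups thus lay below wild type and overlapped each other. Il6 lay under the background in all 14 arrays, at 2.91 to 3.25 in Mdr2-KO and 3.13 to 4.00 in Mdr2-KO/IL6-KO (difference 0.41, limma adjusted p = 0.0527). The Il6 probe therefore did not check the IL6 genotype, and where it lies relative to the deleted part is not given in the sources used here.

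Loss of IL6 went with 1746 of 19938 genes past the threshold (8.76%), 1005 of them higher (5.04%) and 741 lower (3.72%) in Mdr2-KO/IL6-KO. Most changes were small: the median size among them was 0.31, and 150 genes (0.752%) differed by at least 1.5-fold, 37 higher and 113 lower. At 2-fold or more, 23 genes were lower and 2 higher, Igf2 and Slc4a9. Serum amyloid genes, small nucleolar RNAs and major urinary protein lay among the large falls, and the arrays of the groups did not overlap for 1464 genes (7.34%). The calls held for 232 higher and 282 lower genes. With the genes of lowest level left out, 1857 of 13292 passed (13.97%), 1012 higher and 845 lower. Shares in lists of genes above the background are better read against that figure than against 8.76%. The balance of rises and falls depended on the scaling: the median difference over all genes was 0.06, and centring each array on its median gave 424 higher and 1056 lower genes, while quantile normalization gave 675 and 852. Every Mdr2-KO/IL6-KO array had a higher median over the genes tested than every Mdr2-KO array. Leaving out single arrays moved the total most for Mdr2-KO arrays 1 (754 genes), 3 (932) and 4 (999) and for double-knockout arrays 4 (1055) and 5 (1045), and 687 genes passed without the pair of arrays high in neutrophil genes.

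**Figure D1:**
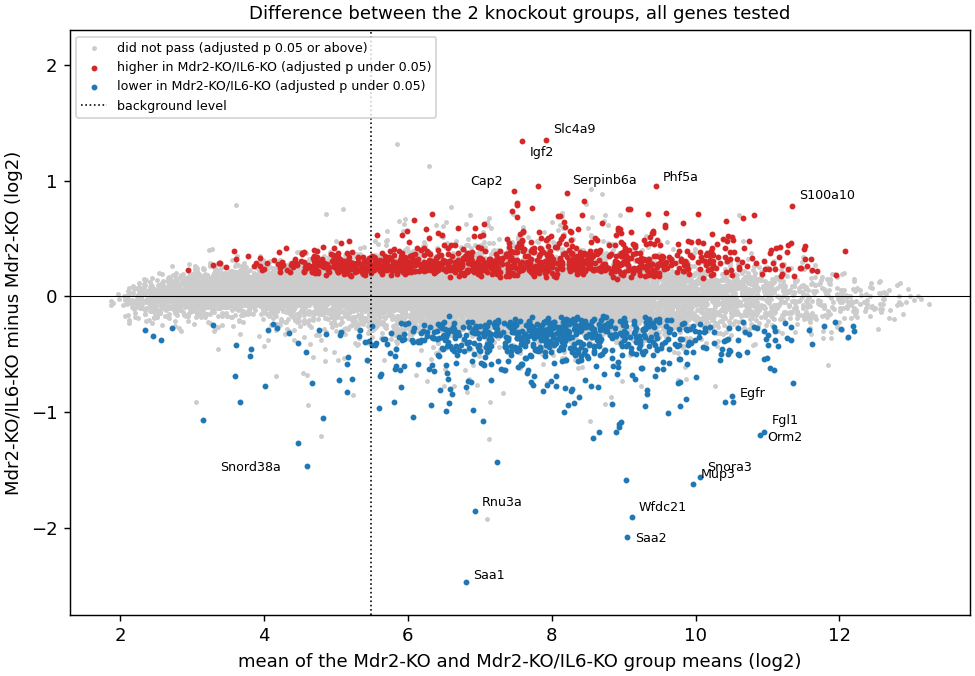
Each point is 1 of the 19938 genes, with the mean of the Mdr2-KO and Mdr2-KO/IL6-KO group means on the horizontal axis and the difference (Mdr2-KO/IL6-KO minus Mdr2-KO) on the vertical axis, both in log2. Red points passed as higher (1005) and blue points as lower (741), grey points did not pass, and the dotted line is the background level of 5.49; the largest falls, led by Saa1 at -2.47, reach further from 0 than the largest rises, Slc4a9 at 1.35 and Igf2 at 1.34.

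The acute phase genes of the serum amyloid A group were lower in Mdr2-KO/IL6-KO. All 5 measured genes of the list of Saa genes and Wfdc21 passed as lower, with a median difference of -1.90 against 0.06 over all genes. Serum amyloid A proteins are carried on high-density lipoprotein and rise steeply in inflammation. Wfdc21 encodes a small secreted protein of the whey acidic protein family.

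Saa1 read 7.41, 6.97, 11.12, 7.21 and 7.51 in the Mdr2-KO arrays and 4.91, 5.60 and 6.05 as the lowest, median and highest of the Mdr2-KO/IL6-KO arrays. The groups did not overlap, and Mdr2-KO array 3 stood far above the other 4. Saa1 was 5.54-fold lower (difference -2.47, 95% confidence interval -3.77 to -1.17, limma adjusted p = 0.0241), and the difference was -1.70 (adjusted p = 0.0134) without Mdr2-KO array 3. With robust moderation of the variances its adjusted p was 0.054. Saa2, the neighbouring and very similar gene, differed by -2.08 (limma adjusted p = 0.0255), and by -1.50 (0.0354) without Mdr2-KO array 3. Its adjusted p was 0.0508 without double-knockout array 2, 0.0565 with robust moderation and 0.0586 without both arrays high in neutrophil genes. Probes for Saa1 and Saa2 may each read some of the other's transcript, so the split between them is uncertain.

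Wfdc21 read 10.07, 10.03, 10.70, 9.64 and 9.90 in Mdr2-KO and 6.73, 8.39 and 9.13 in Mdr2-KO/IL6-KO. There was no overlap, and the fall of 3.74-fold (difference -1.90, 95% interval -2.58 to -1.23, limma adjusted p = 0.00318) was -1.75 (adjusted p = 0.00944) without Mdr2-KO array 3 and -1.94 without the pair of arrays high in neutrophil genes. Saa3, the form made in macrophages and fat as well as in liver, read 7.10, 7.27, 7.84, 7.28 and 7.48 in Mdr2-KO and 5.97, 6.33 and 7.02 in Mdr2-KO/IL6-KO, again without overlap. Its difference of -0.98 (limma adjusted p = 0.00484), or -0.87 without Mdr2-KO array 3, and that of Wfdc21 held. Saa4, the constitutive form, overlapped between the groups and differed by -0.54 (adjusted p = 0.0344), and by -0.39 without Mdr2-KO array 3. Its adjusted p rose to between 0.0564 and 0.084 when Mdr2-KO array 1 or 3 or double-knockout array 1, 2, 3 or 5 was left out. Without double-knockout array 2, without both arrays high in neutrophil genes, and with robust moderation, 3 of the 5 genes passed.

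Beyond serum amyloid A, 8 of 29 secreted acute phase proteins were lower and none was higher, with a median difference of -0.26. Of these calls 5 held: Orm2, Fgl1, Lrg1, Fga and Itih4. The count was 5 without Mdr2-KO array 1 and 6 without both arrays high in neutrophil genes. The lists and their members were assembled with earlier results of these arrays known, so their direction is a description.

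Orm2, an orosomucoid that binds drugs and lipids in plasma, read 11.23, 11.36, 12.84, 10.89 and 11.19 in Mdr2-KO and 9.97, 10.31 and 10.72 in Mdr2-KO/IL6-KO. The groups did not overlap, although the gap between the lowest Mdr2-KO and the highest Mdr2-KO/IL6-KO array was small. Orm2 differed by -1.20 (95% interval -1.81 to -0.60, limma adjusted p = 0.0196), and by -0.87 (0.0174) without Mdr2-KO array 3. Fgl1, a fibrinogen-related protein secreted by hepatocytes, read 11.43, 11.48, 12.24, 11.39 and 11.16 against 9.86, 10.38 and 10.73. It was 2.25-fold lower (difference -1.17, limma adjusted p = 0.00225, or -0.99 without Mdr2-KO array 3), with every Mdr2-KO/IL6-KO array below every Mdr2-KO and wild-type array. Wild type read 11.94 ± 0.30 (SD, n = 3), so for Fgl1 the Mdr2-KO livers lay nearer to wild type than the livers without IL6.

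Lrg1, a leucine-rich glycoprotein known as a marker of inflammation, differed by -0.75 (limma adjusted p = 0.0139), from a mean of 11.73 ± 0.41 (SD, n = 5) to 10.98 ± 0.22 (SD, n = 6), and by -0.57 (0.0175) without Mdr2-KO array 3. Fga, the alpha chain of fibrinogen, read 11.27, 11.26, 12.03, 11.24 and 10.91 in Mdr2-KO and a narrow 10.62 to 10.86 in Mdr2-KO/IL6-KO. Its groups did not overlap, and the difference was -0.62 (limma adjusted p = 0.0161), or -0.45 (0.00955) without Mdr2-KO array 3. The other fibrinogen chains moved less: Fgg differed by -0.18 (adjusted p = 0.0602, or 0.0331 with each array centred) and Fgb by -0.11 (0.228). Without Mdr2-KO array 3 these were -0.14 and -0.06. Itih4, a plasma serine protease inhibitor heavy chain, differed by -0.35 (limma adjusted p = 0.0133) and Prg4, a secreted lubricating proteoglycan outside the list, by -1.01 (0.00643). Both held, at -0.27 and -0.76 without Mdr2-KO array 3. For Itih4 the Mdr2-KO mean included array 3 at 12.61, with the other 4 between 12.19 and 12.22, all above the highest Mdr2-KO/IL6-KO array at 12.06.

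Not every acute phase gene followed. Haptoglobin (Hp), the binder of free haemoglobin, read 12.47, 12.46, 12.79, 12.45 and 12.52 in Mdr2-KO and 12.34, 12.43 and 12.56 in Mdr2-KO/IL6-KO (difference -0.10, 95% interval -0.26 to 0.06, limma adjusted p = 0.366). Hemopexin (Hpx), which binds free haem, differed by -0.04 (interval -0.16 to 0.07) and C-reactive protein (Crp) by -0.17 (interval -0.33 to -0.02, adjusted p = 0.131). These intervals leave out falls of the size seen for Orm2 and Fgl1. Mdr2-KO array 3 was the highest for all of them, and without it Hp differed by -0.04, Hpx by -0.01 and Crp by -0.11 (adjusted p = 0.747, 0.917 and 0.294 in limma). The list of negative acute phase proteins, such as transthyretin (Ttr, difference -0.05, or -0.07 without Mdr2-KO array 3), had 0 of 9 members past the threshold in limma, none with an unadjusted p under 0.05 and none past it in any alternative fit.

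**Figure D2:**
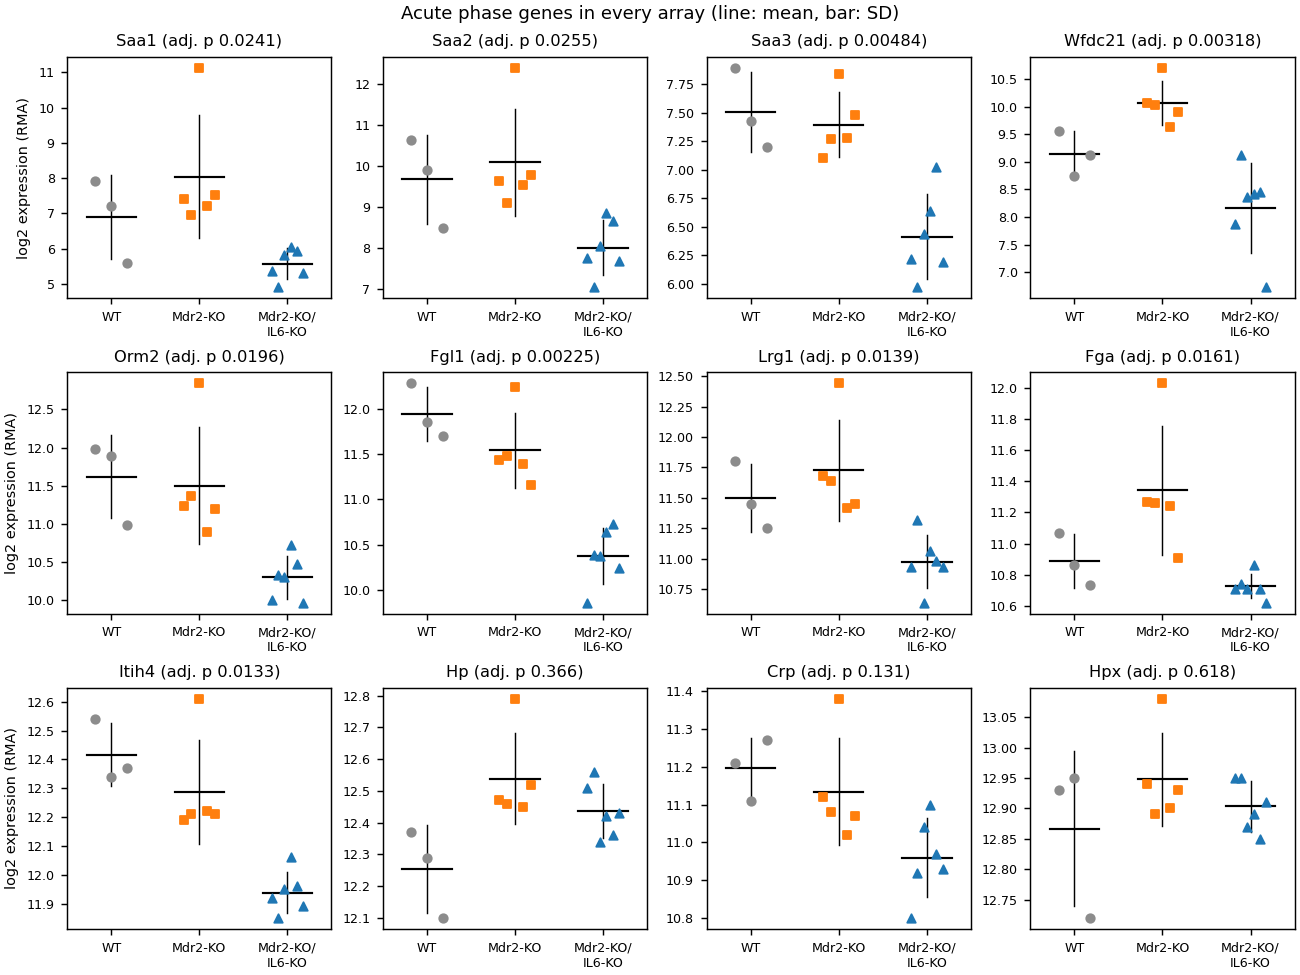
Log2 expression of 12 acute phase genes in every array (grey circles wild type, orange squares Mdr2-KO, blue triangles Mdr2-KO/IL6-KO), with a line at the group mean and a bar of 1 SD; adjusted p from limma stands above each panel and axes differ between panels. In the 9 panels from Saa1 to Itih4 the Mdr2-KO/IL6-KO arrays lie below all Mdr2-KO arrays, and Mdr2-KO array 3 is the highest Mdr2-KO point in each of these; Hp, Crp and Hpx overlap between the groups.

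The sequence before the start of 5 of these genes is shown, 4 that were lower and Fgb, which did not pass, because STAT3 and its partners act on such stretches, and the genes differ in which known motif letters they carry. Sequences are the 250 bases before the start in RefSeq (GRCm38.p6), 5′ to 3′ in the direction of the gene. Capitals mark TTCNNNGAA, the palindrome bound by STAT proteins, or CTGGGAA, the core of the IL6 response element, searched on both strands.
Fga, chr3:83025903-83026152, plus strand: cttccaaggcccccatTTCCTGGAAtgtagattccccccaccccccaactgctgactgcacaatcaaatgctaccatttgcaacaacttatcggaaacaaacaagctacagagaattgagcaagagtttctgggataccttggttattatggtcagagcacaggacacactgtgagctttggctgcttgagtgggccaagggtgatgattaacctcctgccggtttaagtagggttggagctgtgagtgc
Itih4, chr14:30886226-30886475, plus strand: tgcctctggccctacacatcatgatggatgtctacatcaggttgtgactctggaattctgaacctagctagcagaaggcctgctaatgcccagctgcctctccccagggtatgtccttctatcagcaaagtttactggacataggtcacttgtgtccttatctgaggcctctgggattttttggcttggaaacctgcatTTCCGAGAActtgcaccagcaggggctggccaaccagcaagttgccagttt
Lrg1, chr17:56121947-56122196, minus strand: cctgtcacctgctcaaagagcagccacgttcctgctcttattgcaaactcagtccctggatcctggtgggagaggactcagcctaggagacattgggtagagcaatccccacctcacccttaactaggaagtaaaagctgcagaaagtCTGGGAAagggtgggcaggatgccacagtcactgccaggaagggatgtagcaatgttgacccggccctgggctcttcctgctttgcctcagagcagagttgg
Saa1, chr7:46742981-46743230, minus strand: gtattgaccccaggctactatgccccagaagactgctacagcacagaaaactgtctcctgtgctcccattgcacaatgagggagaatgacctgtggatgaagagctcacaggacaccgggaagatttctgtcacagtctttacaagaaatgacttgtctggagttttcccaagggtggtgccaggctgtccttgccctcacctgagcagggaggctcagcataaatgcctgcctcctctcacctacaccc
Fgb, chr3:83049864-83050113, minus strand: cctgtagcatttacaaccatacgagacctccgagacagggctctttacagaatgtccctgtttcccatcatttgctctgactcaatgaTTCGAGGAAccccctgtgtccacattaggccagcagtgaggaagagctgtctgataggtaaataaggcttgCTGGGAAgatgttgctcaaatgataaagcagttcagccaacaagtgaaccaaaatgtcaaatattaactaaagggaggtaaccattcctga
Fga and Itih4 held TTCNNNGAA at positions -234 and -51 relative to the start, Lrg1 held CTGGGAA at -102, and Saa1 held neither in this window. Fgb held both, TTCNNNGAA at -162 and CTGGGAA at -91. Steap4, which was lower and is not shown, also held both, CTGGGAA at -132 and TTCNNNGAA at -116. In windows from 250 bases before to 50 after the start, TTCNNNGAA occurred in 8.72% of 654 promoters of genes that were lower, 6.75% of 992 of genes that were higher, 7.66% of 19177 of genes tested and 8.3% of all 32851 in the table. CTGGGAA occurred in 12.5%, 9.78%, 10.9% and 11.1% of the same sets. Among 30 promoters of measured acute phase genes, TTCNNNGAA occurred in 7 and CTGGGAA in 9; among the 10 whose gene was lower, in 3 and 2, and among the 20 whose gene did not pass, in 4 and 7. These 20 promoters came from 17 genes. Il1rn entered with more than 1 promoter, each with CTGGGAA, and its matches at -121 and -201 are the same site read from different starts. A match is a run of letters, not a shown binding site, and genes can have more than 1 promoter.

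Signalling genes of the IL6 pathway showed no calls in their own list. Of 22 genes of the JAK, STAT3 and feedback list 0 passed in limma, with a median difference of 0.03; 2 had an unadjusted p under 0.05, and 1 passed with array weights, which give noisy arrays less say, without double-knockout array 1 and without wild-type array 3. Stat3 read 9.85, 9.70, 10.34, 9.70 and 9.84 in Mdr2-KO and 9.59, 9.81 and 9.91 in Mdr2-KO/IL6-KO, and differed by -0.12 (95% interval -0.34 to 0.10, adjusted p = 0.452). Socs3, the feedback inhibitor, differed by -0.25 (interval -0.62 to 0.11, adjusted p = 0.335), with Mdr2-KO array 3 at 8.35 and the other 4 at 7.36 to 7.52. Without Mdr2-KO array 3, Stat3 differed by -0.01 and Socs3 by -0.08. The receptor chains overlapped fully: Il6ra differed by -0.10 (interval -0.40 to 0.20) and Il6st by -0.03 (interval -0.13 to 0.08). Of 13 genes for ligands and receptors of the IL6 family 1 passed, the cytokine Lif at 0.37 (adjusted p = 0.0124), which lay under the background in both groups (adjusted p = 0.0616 without both arrays high in neutrophil genes).

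Complement and coagulation genes showed single members moving among many that did not pass. Of 26 complement genes 3 were lower and 1 higher. C8a, a chain of the membrane attack complex, read 10.17, 10.32, 11.02, 9.83 and 10.21 in Mdr2-KO and 9.12, 9.37 and 9.85 in Mdr2-KO/IL6-KO and differed by -0.88 (limma adjusted p = 0.0142). The highest Mdr2-KO/IL6-KO array just exceeded the lowest Mdr2-KO array, and without the 2 arrays high in neutrophil genes the adjusted p was 0.0519. C8g, another chain of the same complex, moved the other way, from 10.84 ± 0.09 (SD, n = 5) to 11.22 ± 0.11 (SD, n = 6), a difference of 0.38 (limma adjusted p = 0.00413) that held. C4b, the fourth complement component, and C4a, its close copy outside this list, differed by -0.43 (adjusted p = 0.0254) and -0.63 (0.00768). Both held, but the copies may share probe signal. Of 24 coagulation genes 2 passed, a share close to the 8.76% of all genes and below the 13.97% with the genes of lowest level left out. Both were lower: clotting factor F9 by -0.36 (limma adjusted p = 0.00458), which held, and Proz by -0.31 (0.0125), whose adjusted p was 0.0569 without both arrays high in neutrophil genes.

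Slc39a14 (ZIP14), the zinc and iron importer known as an IL6-responsive hepatocyte gene, was lower by 0.58 on the log2 scale (difference -0.58, limma adjusted p = 0.0248). Its arrays read 10.30, 10.08, 10.76, 9.86 and 9.89 in Mdr2-KO and 9.36 to 9.86 in Mdr2-KO/IL6-KO; they did not overlap, but met at the edge. Its adjusted p was 0.0647 without Mdr2-KO array 1 and 0.053 without double-knockout array 5. In the iron list as a whole 2 of 21 genes were lower and 1 higher, and none of these 3 calls held.

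The second group of large falls was small noncoding RNA. Small nucleolar RNAs guide the methylation (box C/D, Snord) or pseudouridylation (box H/ACA, Snora) of ribosomal RNA, and U3 (Rnu3a) takes part in cutting its precursor. Of 73 small noncoding RNA genes 41 were lower and 0 higher in limma, with a median difference of -0.44; 36 of the 41 calls held, and the count lay between 36 and 42 with any 1 array left out. Of 20 Snora genes 15 were lower and of 31 Snord genes 16. Passing genes made up 56.2% of the class, against 8.76% of all genes and 13.97% with the genes of lowest level left out. Arrays of the groups did not overlap for 35 of the 73, where 7.34% of all genes showed no overlap. This class was set apart after its values had been seen.

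Rnu3a read 8.01, 8.29, 7.80, 7.46 and 7.75 in Mdr2-KO and 5.50, 5.96 and 6.44 in Mdr2-KO/IL6-KO. The gap between the groups exceeded the spread within either, and wild type read 5.50 ± 0.17 (SD, n = 3), near the Mdr2-KO/IL6-KO level. The difference was -1.86 (95% interval -2.21 to -1.50, limma adjusted p = 8.43e-05). Snora3 read 11.02, 10.93, 10.65, 10.69 and 10.90 against 8.80, 9.21 and 9.83, a 2.94-fold fall (limma adjusted p = 0.000128), with wild type at 8.86 ± 0.16 (SD, n = 3). Snora16a fell by 1.58 (limma adjusted p = 0.000193), from 9.83 ± 0.16 (SD, n = 5) to 8.24 ± 0.42 (SD, n = 6). Snora44, Snord15b and Snord33 differed by -1.13, -1.17 and -1.10, with adjusted p of 0.000391, 0.000816 and 0.000484 in limma. Snord38a passed as lower too (limma adjusted p = 5.74e-05), but its mean lay under the background in both groups, so no size is given.

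Many of these RNAs are cut from introns of other genes, often genes of ribosomal proteins. By the RefSeq gene table (GRCm38.p6), which gives no strand, 33 of the 73 lay inside a tested gene, and 17 of the 41 that were lower lay inside 16 such genes. None of those 16 passed in limma, 3 had an unadjusted p under 0.05, 1 passed when wild-type array 3 was left out, and their median difference was -0.05. Snora3 fell by 1.56 while Rpl27a, the ribosomal protein gene that holds it, differed by -0.06 (limma adjusted p = 0.624). Snord15b lies in Rps3, which differed by -0.22 (adjusted p = 0.126), and Snora2b, lower by 1.04 on the log2 scale (difference -1.04), lies in Kansl2, which differed by 0.05 (adjusted p = 0.575). An array probe for such an RNA cannot tell the mature RNA from the unspliced intron around it.

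**Figure D3:**
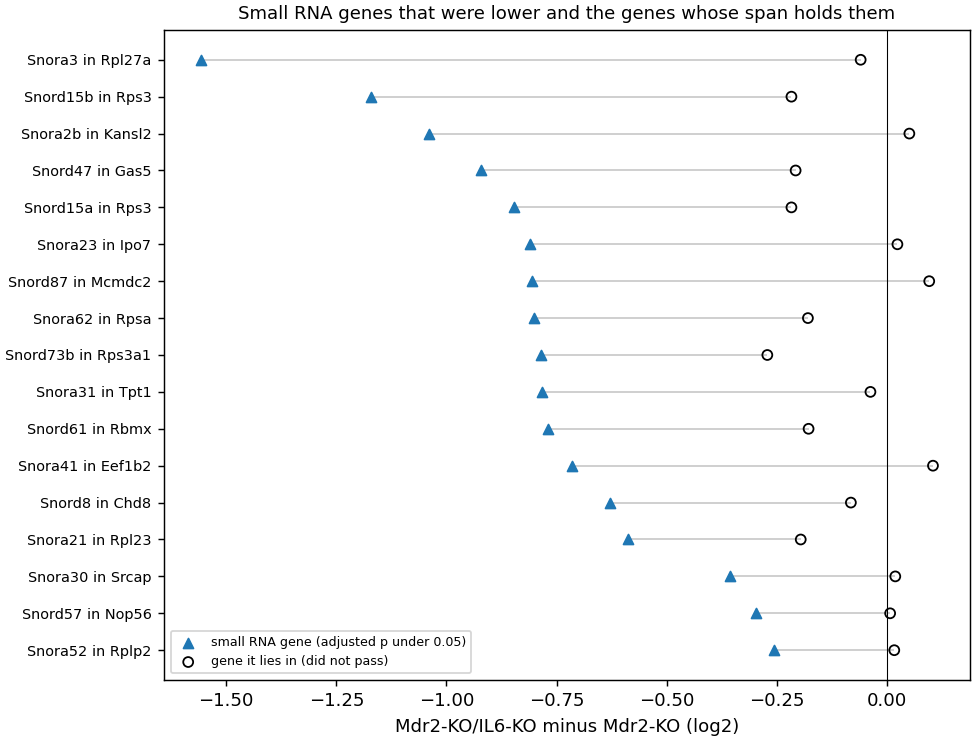
Difference between the groups (Mdr2-KO/IL6-KO minus Mdr2-KO, log2) for the 17 small RNA genes that were lower and lie inside another tested gene (blue triangles), beside that gene (open circles). The small RNAs lie between -1.56 (Snora3) and -0.26, while the genes around them lie between -0.27 and 0.10 and none passed.

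MicroRNA genes as a class did not share this pattern: 21 of 297 passed (7.07%, against 8.76% of all genes), 13 higher and 8 lower, and 201 of the 297 lay under the background. The mature forms from 2 genes whose calls held above it are shown, with the seed (bases 2 to 8) in capitals; the array does not tell the 2 arms of Mir540 apart. Sequences are from RefSeq (GRCm38.p6), and their seeds differ.
mmu-miR-568: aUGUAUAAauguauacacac
mmu-miR-540-3p: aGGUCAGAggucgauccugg
mmu-miR-540-5p: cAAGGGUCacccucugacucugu
Mir568 read 8.74, 8.42, 8.20, 8.61 and 8.15 in Mdr2-KO and 7.72, 7.85 and 8.12 in Mdr2-KO/IL6-KO, without overlap (difference -0.55, limma adjusted p = 0.00679). Mir540 rose from 6.22 ± 0.17 (SD, n = 5) to 6.62 ± 0.10 (SD, n = 6), a difference of 0.40 (limma adjusted p = 0.00909). Larger falls than that of Mir568 were called for 2 microRNA genes not shown, Mir1839 (-1.05) and Gm24148 (-0.685). Whether these 2 calls held is not given here. The microRNA class, too, was set apart after its values had been seen. The array reads the gene's transcript or precursor as well as any mature form.

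Single genes of the machinery for protein breakdown and respiration were among the more stable rises. The median differences of both lists lay below the 0.06 over all genes. For comparison, 5.04% of all genes were higher and 3.72% lower, and 13.97% passed in either direction with the genes of lowest level left out. Of 34 proteasome subunits 10 were higher and 3 lower, and 8 and 2 of these calls held. Psmb4, a subunit of the catalytic core, read 10.05, 9.82, 10.16, 10.08 and 10.36 in Mdr2-KO and 10.63, 10.76 and 10.79 in Mdr2-KO/IL6-KO. The groups did not overlap and differed by 0.65 (limma adjusted p = 0.000391), with wild type at 10.88 ± 0.01 (SD, n = 3). Psmb2 and Psma6, also of the core, differed by 0.42 (adjusted p = 0.00126) and 0.39 (0.0044). Psmc6, an ATPase of the cap, and Psma4 of the core went down, by -0.48 (limma adjusted p = 0.00264) and -0.45 (0.00467). The median difference of the 34 was 0.04, and 21 of them did not pass.

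Of 54 genes of oxidative phosphorylation 9 were higher and 3 lower, with a median difference of 0.00; 6 of the rises held, and the falls numbered 1 without Mdr2-KO array 1 or 3 or double-knockout array 5. Ndufb6, a subunit of complex I, rose from 10.14 to 10.45 in Mdr2-KO up to 10.83 to 11.14 in Mdr2-KO/IL6-KO, a difference of 0.68 (limma adjusted p = 0.000539). Atp5d, of the ATP synthase, read 11.85 to 11.96 in Mdr2-KO and 12.22 to 12.38 in Mdr2-KO/IL6-KO (difference 0.39, limma adjusted p = 0.000447). Uqcrc2, of complex III, rose by 0.39 (adjusted p = 0.00104), while Uqcrfs1, the Rieske protein of the same complex, fell by 0.49 (0.00557).

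Ribosomal genes were split in the same way. Of 49 cytosolic ribosomal protein genes 7 were higher, such as Rps20 (0.45, limma adjusted p = 0.00205) and Rps7 (0.42, 0.00374), and 6 lower, such as Rps21 (-0.78, 0.00147) and Rpl7 (-0.50, 0.0159). These 4 calls held, but the count of lower genes was 2 without Mdr2-KO array 1, 3, 4 or 5 or double-knockout array 4, 5 or 6, and 3 without double-knockout array 3. The count of higher genes was 4 with all probes of a gene averaged. Rps21 read at least 8.81 in every Mdr2-KO array and at most 8.51 in every Mdr2-KO/IL6-KO array. Ribosomal protein genes have many processed copies, so their probe signals may be shared. Among 77 mitochondrial ribosomal protein genes 12 were higher and 2 lower, led by Mrpl23 (0.72, limma adjusted p = 0.00256). That is 18.2% of the class, against 8.76% of all genes and 13.97% with the genes of lowest level left out. The median difference of the class was 0.02, with 34 of the 77 below 0, and it was set apart after its values had been seen. The count of higher genes was 7 without Mdr2-KO array 1 or double-knockout array 4 and 7 with each array centred.

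Of 35 genes for ribosome biogenesis and snoRNA-binding proteins 6 were higher and 3 lower, and 2 of the calls in each direction held. The rises numbered 2 without Mdr2-KO array 1 or double-knockout array 2, 4, 5 or 6, 3 without Mdr2-KO array 2 or 4, and 2 with each array centred. Gar1, a core protein of the H/ACA particles that carry Snora RNAs, read 7.18, 7.13, 7.02, 7.18 and 7.16 in Mdr2-KO and 7.49, 7.62 and 7.78 in Mdr2-KO/IL6-KO. The groups were well apart, and Gar1 rose by 0.50 (limma adjusted p = 0.000391) while most Snora RNAs were lower. Nop58, a core protein of the box C/D particles, fell by 0.42 (adjusted p = 0.0117), and Nop16, a nucleolar protein, rose by 0.33 (0.00405). Pop4, a protein of RNase P and RNase MRP, rose by 0.52 (limma adjusted p = 0.000262).

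Splicing and mRNA export factors gave 4 rises and 4 falls among 35. Phf5a, a part of the SF3b complex that recognises the branch point, read 8.90, 8.82, 9.08, 8.95 and 9.08 in Mdr2-KO and 9.62, 9.97 and 10.24 in Mdr2-KO/IL6-KO. It was the largest rise in this list, at 0.95 (95% interval 0.75 to 1.16, limma adjusted p = 0.00021), with wild type at 10.35 ± 0.06 (SD, n = 3). Alyref, an mRNA export adaptor, rose by 0.76 (adjusted p = 0.000391), from 8.52 to 8.84 in Mdr2-KO up to 9.27 to 9.59 in Mdr2-KO/IL6-KO. Clk4, a kinase of splicing factors, fell by 0.50 (limma adjusted p = 0.000419) and Luc7l3, of the U1 particle, by 0.42 (0.00837). These 4 held; the rises and the falls each numbered 2 without Mdr2-KO array 1 or 4 or double-knockout array 4 or 5, and centring the arrays left 2 rises.

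Chaperones were lower where they passed. Of 19 cytosolic heat shock chaperones 7 were lower and none higher, with a median difference of -0.28. Over all genes 3.72% were lower, and 13.97% passed in either direction with the genes of lowest level left out. Dnaja1, an Hsp40 co-chaperone, read 10.20, 10.15, 10.17, 10.28 and 9.85 in Mdr2-KO and 9.20, 9.30 and 9.74 in Mdr2-KO/IL6-KO. Its difference of -0.75 (limma adjusted p = 0.00102) alone of the 7 held. Hsph1, an Hsp110 chaperone, differed by -0.77 (adjusted p = 0.0194), and its adjusted p was 0.0512 without Mdr2-KO array 3. The count of 7 was less firm than the single gene Dnaja1: it was 2 without Mdr2-KO array 1, 3 or 4, 4 without Mdr2-KO array 2, 3 without double-knockout array 2 or 5 and 4 without array 4 or 6 of that group, and 1 without both arrays high in neutrophil genes. In the list of the unfolded protein response and folding in the endoplasmic reticulum 4 of 31 were lower and none higher. That share is below the 13.97%, so the count does not set this list apart. Among the 4 was the translocon subunit Sec61b (-0.46, limma adjusted p = 0.00347), which held. Another was Sdf2l1 (-0.63, adjusted p = 0.0146; 0.0591 without both arrays high in neutrophil genes). The count of this list was 2 without Mdr2-KO array 3 or 4 or double-knockout array 5, and 7 without Mdr2-KO array 5.

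**Figure D4:**
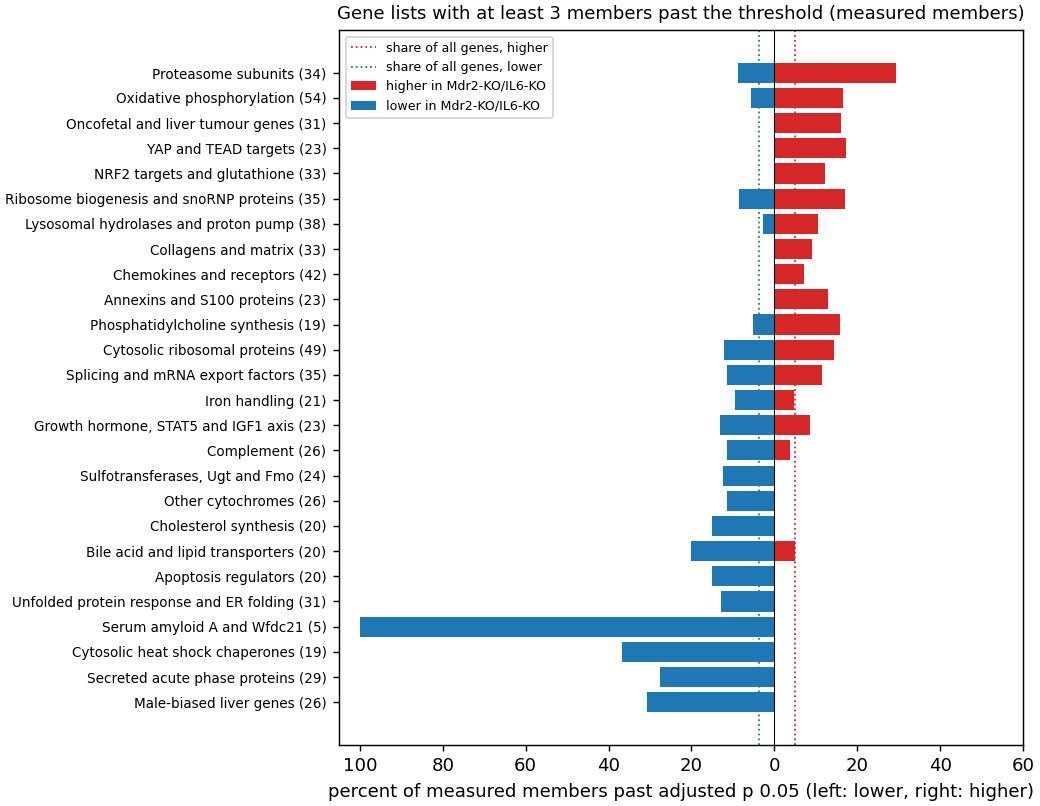
Share of each list's measured members that passed as higher (red, to the right) or lower (blue, to the left) in Mdr2-KO/IL6-KO. Lists with at least 3 members past the threshold are shown, with the number of measured members in brackets. Dotted lines mark the shares over all genes, 5.04% higher and 3.72% lower. With the genes of lowest level left out, 13.97% of 13292 passed in either direction. The dotted lines may thus be low for lists whose genes lie above the background. The Saa list (5 of 5 lower), heat shock chaperones (7 of 19), male-biased genes (8 of 26) and secreted acute phase proteins (8 of 29) reach furthest to the left, and proteasome subunits (10 of 34) furthest to the right.

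Several rises outside the lists were large relative to their spread. Serpinb6a, an intracellular serine protease inhibitor, read 7.84, 7.54, 7.95, 7.78 and 7.71 in Mdr2-KO and 8.42, 8.67 and 8.91 in Mdr2-KO/IL6-KO. It rose 1.86-fold (limma adjusted p = 0.000391), above both Mdr2-KO and wild type (7.61 ± 0.22, SD, n = 3). Cap2, an actin regulator, read 6.86 to 7.15 in Mdr2-KO, 7.51 to 8.28 in Mdr2-KO/IL6-KO and 6.29 ± 0.41 (SD, n = 3) in wild type, and rose by 0.91 (limma adjusted p = 0.00243). The sodium-phosphate cotransporter Slc20a1 rose by 0.71 (adjusted p = 0.00467). Pagr1a, of a histone methyltransferase complex, and Use1, of vesicle traffic to the endoplasmic reticulum, rose by 0.80 (limma adjusted p = 0.000398) and 0.71 (0.00147), to levels close to the wild-type means of 8.08 and 10.36. Milr1, an inhibitory receptor of mast cells, rose by 0.66 (adjusted p = 0.0168) from a level near background.

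Of 23 annexins and S100 proteins 3 were higher and none lower, a share close to the 13.97% of all genes that passed with the genes of lowest level left out. S100a10, the partner of annexin A2 at the cell membrane, read 10.96, 10.95, 10.77, 11.19 and 10.90 in Mdr2-KO and 11.47, 11.75 and 11.94 in Mdr2-KO/IL6-KO. It rose by 0.78 (95% interval 0.59 to 0.98, limma adjusted p = 0.000398) and was the 1 call of the list that held; the list's count was 1 without Mdr2-KO array 1 or 3 or double-knockout array 2, 4 or 5, and 1 after centring.

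Genes of the oxidative stress response rose where they passed: 4 of 33 NRF2 targets and glutathione genes were higher and none lower. Of these 4 calls 2 held. With the genes of lowest level left out, 13.97% of all genes passed, so the count does not set this list apart. Nor does its median difference of 0.17: collagen and matrix genes had 0.17 and YAP and TEAD targets 0.18. Other lists leaned the other way, such as cholesterol synthesis at -0.16. Nfe2l2, which encodes the factor NRF2 itself, read 10.32, 10.39, 10.03, 10.32 and 10.33 in Mdr2-KO and 10.53, 10.80 and 10.93 in Mdr2-KO/IL6-KO (difference 0.49, limma adjusted p = 0.00472). Gclm, the modifier subunit of the enzyme that starts glutathione synthesis, rose by 0.42 (adjusted p = 0.00525). Both held. Outside the list, the iron-binding nuclear protein Pir rose by 0.64 (limma adjusted p = 0.00116) and the autophagy receptor Sqstm1 by 0.25 (0.0101), and both of these held. Nqo1, a quinone reductase, differed by 0.57 (adjusted p = 0.0202), with 0.0531 without Mdr2-KO array 1 and 0.0508 without Mdr2-KO array 3. The list's count was 2 without Mdr2-KO array 1.

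Of 31 oncofetal and liver tumour genes 5 were higher and none lower, and 1 of these calls held. Over all genes 8.76% passed in either direction, and 13.97% with the genes of lowest level left out, so the count alone does little to set this list apart. Igf2, the fetal growth factor, read 7.54, 6.28, 7.55, 6.17 and 7.08 in Mdr2-KO and 7.17, 8.47 and 9.04 in Mdr2-KO/IL6-KO, with wild type at 6.40 ± 0.06 (SD, n = 3). The groups overlapped, as 2 Mdr2-KO/IL6-KO arrays lay within the Mdr2-KO range, and Igf2 rose 2.53-fold (difference 1.34, 95% interval 0.62 to 2.06, limma adjusted p = 0.0258). Its adjusted p was 0.0691 without Mdr2-KO array 4, 0.0508 and 0.0552 without double-knockout arrays 2 and 4, and 0.0528 with robust moderation. Gpc3, a cell-surface proteoglycan used as a liver tumour marker, read 5.35 to 5.94 in Mdr2-KO and 5.87 to 6.43 in Mdr2-KO/IL6-KO and differed by 0.53 (limma adjusted p = 0.0135). That call held, at a level little above the background. The list's count was 2 without Mdr2-KO array 1 or 4 and 3 without Mdr2-KO array 3 or double-knockout array 4.

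The other gene more than 2-fold higher was Slc4a9, an anion exchanger, which differed by 1.35 (limma adjusted p = 0.0344). It read 6.70 to 7.56 in Mdr2-KO, and 7.74, 8.14 and 9.88 as the lowest, median and highest of Mdr2-KO/IL6-KO. The groups did not overlap, but the spread in Mdr2-KO/IL6-KO was wide, and the adjusted p lay between 0.0502 and 0.0831 without Mdr2-KO array 1, 2, 3 or 4 or double-knockout array 2 or 6. Ccl2, the chemokine that draws monocytes, differed by 0.96 (limma adjusted p = 0.0344), and by 0.73 (0.143) without both arrays high in neutrophil genes. Its adjusted p lay between 0.05 and 0.0864 without Mdr2-KO array 1, 2 or 3 or double-knockout array 2. Of 23 YAP and TEAD targets 4 were higher, where 13.97% of all genes passed in either direction with the genes of lowest level left out. Tead2, a partner of YAP, was the 1 of these 4 that held (0.34, limma adjusted p = 0.0101). The count of 4 was 1 without Mdr2-KO array 1 or double-knockout array 6 and 2 without Mdr2-KO array 3 or double-knockout array 1, 2 or 4.

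Single genes for growth factor reception, transport and metabolism were lower. Egfr, the receptor for epidermal growth factor, read 11.25, 10.94, 11.81, 10.52 and 10.35 in Mdr2-KO and 9.80, 10.02 and 10.48 in Mdr2-KO/IL6-KO. The arrays overlapped at the edge, the difference was -0.91 (95% interval -1.35 to -0.48, limma adjusted p = 0.0152), and the call held. Slc10a2, the apical sodium-dependent bile acid transporter, which in liver is found in cholangiocytes, read 8.96, 8.99, 9.01, 8.44 and 8.67 against 7.45, 8.04 and 8.29. It was lower by 1.82-fold (limma adjusted p = 0.00467), and wild type read 8.15 ± 0.35 (SD, n = 3). The organic ion transporter Slc22a30 fell by 0.70 (limma adjusted p = 0.00336) and the choline transporter Slc44a1 by 0.57 (0.00458).

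Among cytochromes, Cyp2c68 differed by -0.69 (limma adjusted p = 0.015), Cyp3a13 by -0.50 (0.0101) and Cyp2d10 by -0.41 (0.00572), and all of these held. Genes of these families are similar in sequence, so a probe may read more than 1 of them. In cholesterol synthesis 3 of 20 genes were lower and none higher, a share close to the 13.97% of all genes that passed with the genes of lowest level left out. The reductase Dhcr7 by -0.45 (limma adjusted p = 0.0101) and the sterol carrier Stard4 by -0.42 (0.00643) held, and 5 genes were lower without double-knockout array 3. In fatty acid oxidation the medium-chain dehydrogenase Acadm rose by 0.40 (adjusted p = 0.00472), and 1 other of 34 members was lower. Casd1, a sialic acid acetyltransferase, read 8.20 to 8.45 in Mdr2-KO and 7.67 to 7.87 in Mdr2-KO/IL6-KO, a fall of 0.58 (limma adjusted p = 0.000374) with a narrow spread in both groups.

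Of 26 male-biased liver genes 8 were lower in these females and none higher (median difference -0.19), and 3 of the calls held: Egfr, C4a and C4b. The largest was Mup3, a major urinary protein, which read 10.63 to 11.12 in Mdr2-KO and 7.12, 9.48 and 10.47 in Mdr2-KO/IL6-KO, with wild type at 11.32 ± 0.41 (SD, n = 3). The groups did not overlap, and the difference was -1.62 (limma adjusted p = 0.0405). Its adjusted p lay between 0.0518 and 0.0871 without wild-type array 1, any 1 Mdr2-KO array, or double-knockout array 1 or 6. The list's count was 3 without Mdr2-KO array 1 or 2, 4 without Mdr2-KO array 3 or double-knockout array 1 or 6, and 5 without Mdr2-KO array 4 or double-knockout array 2, 4 or 5. Of 24 female-biased genes 1 was lower.

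**Figure D5:**
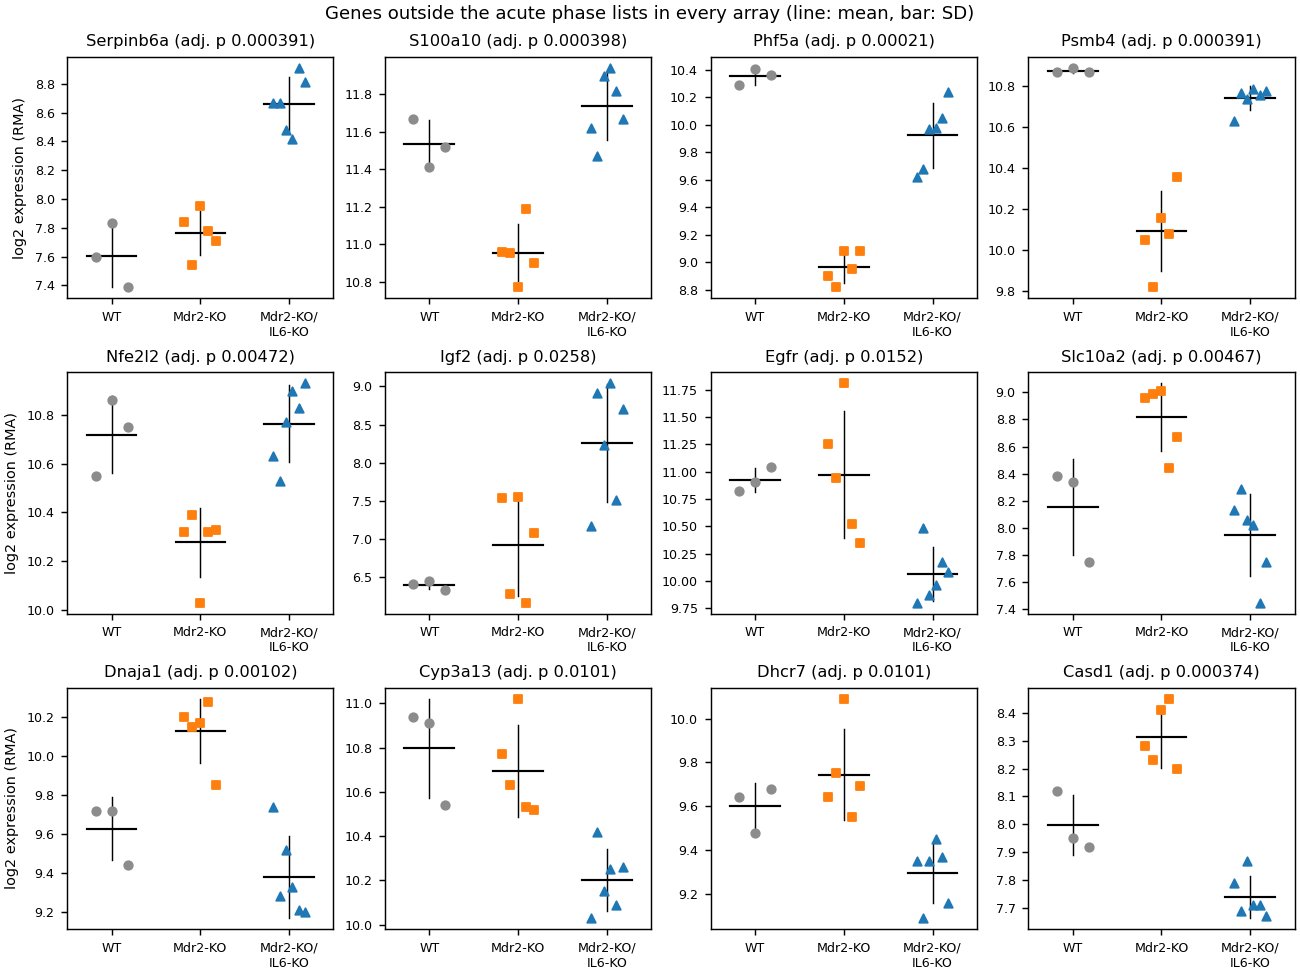
Log2 expression of 12 genes outside the acute phase lists in every array (grey circles wild type, orange squares Mdr2-KO, blue triangles Mdr2-KO/IL6-KO), with a line at the group mean and a bar of 1 SD; adjusted p from limma stands above each panel and axes differ between panels. The Mdr2-KO/IL6-KO arrays lie above all Mdr2-KO arrays for Serpinb6a, S100a10, Phf5a, Psmb4 and Nfe2l2, below them for Slc10a2, Dnaja1, Cyp3a13, Dhcr7 and Casd1, and overlap them for Igf2 and Egfr.

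Few regulators of cell survival passed: of 20 apoptosis regulators 3 were lower and none higher, with a median difference of 0.01. That share is close to the 13.97% of all genes that passed with the genes of lowest level left out, so the count does not set this list apart. Xiap, an inhibitor of caspases, read 8.79 to 9.20 in Mdr2-KO and 8.41 to 8.71 in Mdr2-KO/IL6-KO (difference -0.46, limma adjusted p = 0.00603). Cflar, which blocks caspase-8 activation, fell by 0.34 (adjusted p = 0.00323), and both held. Among 43 cell cycle genes 1 was lower and none higher, and the median difference was 0.01. Among 39 histone genes 9 were lower and 2 higher (4 without Mdr2-KO array 2), led by H2bc3 at -1.07 (limma adjusted p = 0.00447), and among 347 Zfp zinc finger genes 45 were lower and 10 higher. Passing genes made up 28.2% of the histone class and 15.9% of the zinc finger class. Over all genes it was 8.76%, and 13.97% with the genes of lowest level left out. The histone and zinc finger classes were set apart after their values had been seen. The count of lower zinc finger genes was 24 without Mdr2-KO array 1 and 26 without Mdr2-KO array 4, and that of higher ones 5 or 6 without Mdr2-KO array 1, 3 or 4 or double-knockout array 4, 5 or 6.

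Markers of other liver cells showed few calls. Of 30 T and NK cell markers, 24 B and plasma cell markers, 18 MHC class II and dendritic cell markers, 19 neutrophil markers and 31 sinusoidal endothelium markers 0 passed in limma. At an unadjusted p under 0.05 there were 2, 6, 2, 0 and 3 of these, in that order, and at most 1 B cell and 1 MHC class II marker passed in any alternative fit. Of 21 cholangiocyte and ductular markers 1 was higher, the transcription factor Sox4, which read 6.03 to 6.61 in Mdr2-KO and 6.72 to 7.12 in Mdr2-KO/IL6-KO (difference 0.44, limma adjusted p = 0.0157). Of 12 Kupffer cell markers and 23 markers of monocytes and recruited macrophages 1 each was higher, and neither call held. Of 33 collagen and matrix genes 3 were higher, none of which held. Their median difference was 0.17, against 0.06 over all genes, with 28 of 33 above 0. Also above 0 were 18 of 23 monocyte and macrophage markers, 17 of 21 cholangiocyte markers and 20 of 24 B cell markers. So were 20 of 22 matrix protease and inhibitor genes and 21 of 25 stellate cell and myofibroblast markers. Of all 18562 protein-coding genes tested, only 6396 lay below 0, so a lean above 0 was common and these counts should be read against it. Other lists did not lean this way: 5 of 12 Kupffer cell, 14 of 30 T and NK cell and 6 of 19 neutrophil markers lay above 0. Of 29 genes of hepatocyte identity 0 passed in limma, with a median difference of -0.04; 10 had an unadjusted p under 0.05, 1 passed with robust moderation and 4 with each array centred. A p above the threshold does not show that the cell types were present in equal shares.

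Il6 and Abcb4 both lie on chromosome 5. Of 211 tested genes within 10 Mb of Il6 by the RefSeq table (GRCm38.p6), 23 passed (10.9%, against 8.76% of all genes), 15 higher and 8 lower; within 10 Mb of Abcb4 it was 3 of 46 (6.52%). Near Il6 the calls that held included Rbks, ribokinase (-0.42, limma adjusted p = 0.00458), Rheb, an activator of mTORC1 (-0.50, 0.00972), Mapre3, a microtubule end-binding protein (0.40, 0.00893), and Supt7l, of a histone acetyltransferase complex (-0.31, 0.00533). Khk, the ketohexokinase that starts fructose breakdown, read 10.01 to 10.20 in Mdr2-KO and 9.30 to 9.92 in Mdr2-KO/IL6-KO (difference -0.48, limma adjusted p = 0.0151). It lies in the same window, and its adjusted p was 0.065 without both arrays high in neutrophil genes. The count near Il6 was 9, 11 and 12 without Mdr2-KO arrays 1, 3 and 4, and 14, 14 and 12 without double-knockout arrays 2, 4 and 5. For genes near Il6, loss of IL6 and DNA carried along from the strain in which Il6 was deleted cannot be told apart.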

How the data were processed

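Total RNA from liver was read on 14 arrays (3 wild type, 5 Mdr2-KO, 6 Mdr2-KO/IL6-KO), 1-colour and made by Affymetrix. The deposited values are on a log2 scale, summarised by RMA in Partek by the authors, per the submitters' processing notes; no version is stated, and filters and any pooling are not given in sources used here. RMA removes background and brings the arrays' distributions closer together, so values near the background are compressed, and array values carry no count or depth. Over the genes tested, array medians still differed by group: 6.50 to 6.56 in Mdr2-KO and 6.57 to 6.61 in Mdr2-KO/IL6-KO, without overlap. Groups came from the genotype labels.

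Of 35557 probe sets, 21789 were annotated to exactly 1 gene, and the one with the highest mean over the 14 arrays stood for each of 19938 genes. limma 3.58.1 (R 4.3.3) fitted 3 group means with moderated variances. The contrast was Mdr2-KO/IL6-KO minus Mdr2-KO, with Benjamini-Hochberg adjustment over all genes and a threshold of 0.05. The number of arrays limits the precision. Data were also simulated with each gene's spread in these arrays and noise drawn independently for each gene. There the fit called 84% of genes changed by 0.5 log2 and 100% of those changed by 1. Deviations that many genes share within an array were left out, so these shares may be too high for the real arrays. Alternatives changed the scaling, filter, probe choice, variance model or arrays.

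Genes and lists were chosen with earlier results of these data known. The naming rule took the largest changes, the smallest p-values, the largest spreads and the leading members of each list; the text names part of these, and other genes were added after their values were seen.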

Additional observations from a re-analysis of the deposited data

Results flagged for a closer look

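In 21 of 218 checks of a named gene within a knockout group, 1 array lay further from the others than Dixon's 95% limit; chance alone gives about 1 in 20. Mdr2-KO array 3 was the high array in 14 of them. Acute phase and STAT3 pathway genes made up most of these: Saa1 (11.12), Saa2 (12.39), Orm2 (12.84), Lrg1 (12.44), Prg4 (11.09), Itih4 (12.61), Hp (12.79), Hpx (13.08), Crp (11.38), Stat3 (10.34) and Socs3 (8.35). The others were C4b (11.86), Mup3 (11.12) and the neutrophil granule gene Ngp (10.21). The same array was the low one for Nfe2l2 (10.03).

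In the Mdr2-KO/IL6-KO group, array 2 was high for Ngp (9.24), array 4 for the coagulation protein gene Proz (10.10), array 1 low for Psmb4 (10.63) and array 5 low for Rbks (7.48). Mdr2-KO array 2 was low for Rbks (7.89) and Mdr2-KO array 4 high for Rheb (9.67). Whether neutrophil content of Mdr2-KO array 3 bears on its acute phase levels was not tested.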

How the results depend on the processing

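The number of genes past the threshold ranged from 754 to 2164 with 1 array left out. It was 687 without Mdr2-KO array 3 and double-knockout array 2 (Mdr2-KO/IL6-KO), a setting chosen after seeing the data, 150 when a change of at least 1.5-fold was also asked for, and 2944 probe sets when all 35557 were tested. The count over all gene lists, 172, ranged from 90 to 193 with 1 array left out and was 90 without both arrays. The 23 genes near Il6 ranged from 9 to 24, with 8 without both arrays and 13 in a window of 5 Mb. All 93 named genes that passed kept their direction in every alternative run, and 78 also passed in each. Genes that did not pass changed sign in a few settings. Abcb4 went to -0.0108 with each array centred and ranged from -0.0303 to 0.094 with 1 array left out. Il6st went to 0.0055 without both arrays, and Ngp to 0.1616 there. With 1 array left out, Ngp ranged from -0.8297 to 0.7985, and was 0.0131 without double-knockout array 6. The cause of these shifts was not tested, beyond there being fewer arrays. Array numbers here follow deposit order, so no paired analysis was possible because the labels give no number shared between groups. Levels near the background limit what the smaller microRNA and Il6 values can show.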
